A study of Mus musculus with 6 samples.

Results

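The 10 genes described here encode the core machinery of RNA interference and of the microRNA pathway: Ago1, Ago2, Ago3, Ago4, Dicer1, Drosha, Dgcr8, Tarbp2, Tnrc6a and Xpo5. They were chosen by name, not by their values, though with earlier results of these data known. The deposited table holds 23358 gene rows, in which the Argonaute genes stand under the older symbols Eif2c1 to Eif2c4. RNA was sequenced from C57BL/6 mouse marrow mesenchymal stem cells, which adhere to plastic and can become osteoblasts, adipocytes or chondrocytes. The Dia2 group held 3 libraries from cells transfected with 50 nM of an siRNA to Dia2, and the control group 3 libraries from cells that received a non-targeting siRNA. Dia2 is the product of Diaph3 and is a formin, a protein that nucleates and lengthens actin filaments. All cells were between passage 6 and passage 12, the lipid transfection ran overnight, and RNA was taken 24 h after the medium change that ended it. Both groups therefore received an siRNA, and no untransfected sample was analysed here. No dose was recorded for the control siRNA, so an equal load of siRNA cannot be assumed. The knockdown rests on a single siRNA sequence, and nothing states that replicate libraries were separate cultures, so p-values reflect library spread that could be purely technical.

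In the microRNA pathway, a primary transcript is cut in the nucleus by Drosha together with its RNA-binding partner Dgcr8, a pair known as the Microprocessor. The resulting hairpin is carried to the cytoplasm by exportin 5, the product of Xpo5, and is trimmed to a duplex by Dicer1 with its cofactor Tarbp2. A single strand of the duplex is loaded into an Argonaute protein, which pairs with target mRNAs mainly through the bases just behind the 5′ end of the small RNA, the seed. TNRC6 proteins bind the Argonaute and recruit enzymes that shorten the poly(A) tail and remove the cap of the target. A transfected siRNA enters the same Argonaute proteins, and among the mammalian Argonautes AGO2 is the one best known for cutting a fully matched target.

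The stated siRNA is shown first, because it is the small RNA that the cells of the Dia2 group were given. Its loading into an Argonaute was not measured. Capitals mark bases 2 to 8 of the antisense strand, its seed, and in the sense strand the 7 bases that pair with them.
Dia2 siRNA, sense strand: cagagtccatgattcagAACTTAAt
Dia2 siRNA, antisense strand: aTTAAGTTctgaatcatggactctg
The sense strand matched transcripts of Diaph3 in GENCODE M21 without a mismatch, and no transcript of another gene. In the transcripts of the 10 genes the longest run shared with either strand was 7 to 10 of the 25 bases.

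MicroRNAs that lie inside 2 of the 10 genes are shown next, because the Microprocessor cuts such hairpins out of the transcripts that hold them. The sequences are from RefSeq (GRCm38.p6), with the seed, bases 2 to 8, in capitals.
mmu-miR-3618-5p: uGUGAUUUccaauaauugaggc
mmu-miR-3618-3p: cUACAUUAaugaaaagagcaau
mmu-miR-1306-5p: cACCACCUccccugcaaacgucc
mmu-miR-1306-3p: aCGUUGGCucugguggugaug
mmu-miR-693-5p: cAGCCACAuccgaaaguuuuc
mmu-miR-693-3p: gCAGCUUUcagauguggcuguaa
The miR-3618 arms lie in an exon of the 5′ UTR of Dgcr8 (chromosome 16, 18284562 to 18284583 and 18284602 to 18284623, minus strand, GRCm38). The miR-1306 arms lie in a coding exon of the same gene (18284248 to 18284268 and 18284288 to 18284310). Cleavage of the Dgcr8 message at such hairpins by the Microprocessor is a known feedback on Dgcr8. The miR-693 arms lie in an intron of Xpo5 (chromosome 17, 46231551 to 46231571 and 46231581 to 46231603, plus strand). No 2 of these 6 arms share a seed. The table listed Mir1306 at 0 counts in all libraries, and Mir693 had 10 counts summed over all 6. Mir1306 lies within a Dgcr8 exon on the same strand, so its 0 counts cannot show whether it was made.

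Total gene counts ranged from 70538768 to 110006338 per library, and every deposited count was even, as if each fragment had been counted as 2. The ribosomal precursor Rn45s held 10.9% of the counts in Dia2 replicate 1 and 11.7% in control replicate 3, against 6.00% to 7.41% in the other libraries, so each group had 1 library rich in it. The targeted Diaph3 stood at 7.52, 8.37 and 7.39 CPM in Dia2 replicates 1, 2 and 3, against 84.7, 80.1 and 84.8 CPM in control replicates 1, 2 and 3, a log2 fold change of -3.42 ± 0.065 (SE; edgeR adjusted p = 1.66e-11). CPM here is the count scaled to the library total with TMM factors, and edgeR's quasi-likelihood test with Benjamini-Hochberg adjustment over 14151 genes was used throughout, with a threshold of 0.05. The summed level of the mesenchymal markers was dominated by the collagen genes Col1a1 and Col1a2, with sums of 16358 to 17104 CPM in the Dia2 libraries and 10684 to 12618 CPM in the control libraries, and 9 of the 9 tested (of 10 in the list) were higher. The largest changes among them were those of Ly6a, Alcam, Vcam1 and Pdgfrb, while Thy1 was nearly absent, with 0, 0 and 10 counts in the Dia2 libraries and 4, 2 and 0 counts in the control libraries, and was too scarce to test. Of 11 blood and macrophage markers 5 were tested and 4 were lower (Cd53, Itgb2, Cd68 and Cd14), with sums of 12.3 to 13.4 CPM in the Dia2 libraries and 20.3 to 22.2 CPM in the control libraries, and Tyrobp was at 0 counts. Of 6 endothelial markers 4 were tested, of which Vwf was higher and Kdr lower, with sums of 1.75 to 2.20 CPM in the Dia2 libraries and 2.06 to 2.17 CPM in the control libraries, and Emcn was at 0 counts. These marker calls stand against 29.3% higher and 29.9% lower over all genes tested. The mesenchymal sums were higher and the blood and macrophage sums lower in every Dia2 library, whereas the endothelial sums overlapped between groups. The part of these markers in the results below was not tested. In such bulk libraries fewer cells of a type and less RNA per cell cannot be told apart.

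Of the 10 genes, 4 rose in the Dia2 group (Ago4, Tnrc6a, Ago2 and Dgcr8), 1 fell (Drosha) and 5 did not pass the test. Of all genes tested, 59.2% passed, 29.3% as higher and 29.9% as lower, so the share of the machinery that passed was close to the background. The changes were small for most of these genes: the median absolute log2 fold change was 0.18 over the 10 genes and 0.30 over all genes tested. Only Ago4 changed at least 2-fold among the 10, where 8.58% of all tested genes passed with that size. The groups did not overlap for 6 of the 10 genes (Ago1, Ago2, Ago4, Dgcr8, Drosha and Tnrc6a), against 64.6% of all genes tested. All 10 genes passed the filter on low counts, with counts from 138 for Ago4 in control replicate 3 to 16268 for Xpo5 in control replicate 1.

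**Figure D1:**
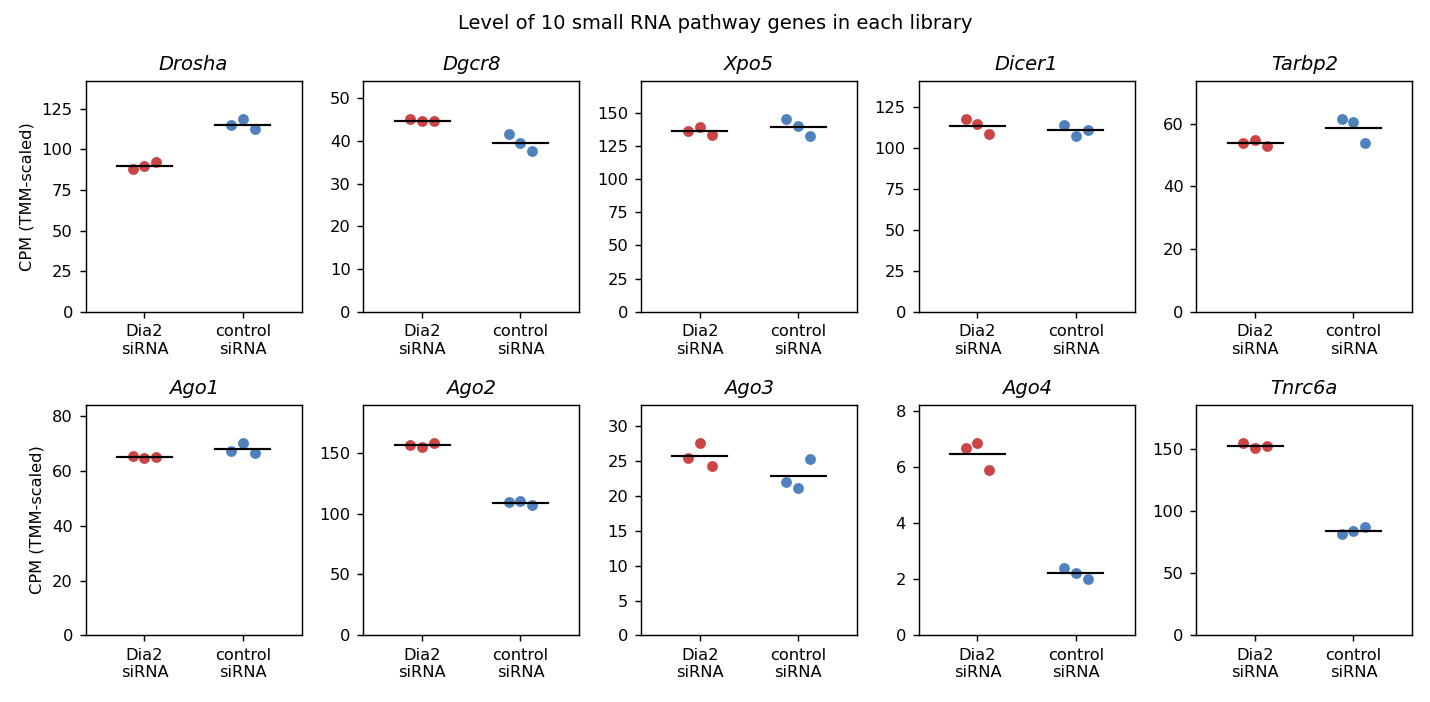
Level of each gene in TMM-scaled CPM (vertical axes, each starting at 0) in the 3 Dia2 siRNA libraries (red, left) and the 3 control siRNA libraries (blue, right); points are libraries 1, 2 and 3 from left to right, and lines are means. Ago2, Ago4 and Tnrc6a lie higher and Drosha lower in every Dia2 library, whereas the points of Dicer1, Xpo5, Ago3 and Tarbp2 overlap between groups.

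At the nuclear step, Drosha fell and Dgcr8 rose slightly. Drosha (chromosome 15, 12824815 to 12935291, plus strand), the RNase III enzyme that cuts primary microRNAs, stood at 87.7, 89.7 and 92.2 CPM in the Dia2 libraries, against 115, 118 and 112 CPM in the control libraries. The groups were apart, with the highest Dia2 library below the lowest control library. The means were 89.9 ± 2.26 CPM in the Dia2 libraries and 115 ± 3.01 CPM in the control libraries (SD, n = 3 each), and the log2 fold change was -0.36 ± 0.044 (SE; edgeR adjusted p = 2.11e-05), or 1.28-fold lower. Dgcr8 (chromosome 16, 18253965 to 18289168, minus strand), the double-stranded RNA-binding subunit whose message holds the miR-3618 and miR-1306 hairpins, stood at 45.1, 44.6 and 44.8 CPM in the Dia2 libraries, against 41.6, 39.5 and 37.7 CPM in the control libraries. Here the control libraries were more spread than the Dia2 libraries, and the groups did not overlap. The log2 fold change was 0.18 ± 0.054 (SE; edgeR adjusted p = 0.0136), or 1.13-fold higher. This call is weak: the adjusted p was 0.0633 without a composition factor and 0.0562 without Dia2 replicate 3.

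Part of the Dgcr8 row cannot be told from a neighbouring gene. In GENCODE M21 825 bases of its exons, or 10.7%, lie over exons of Trmt2a on the opposite strand, and the strand setting of the counting is not stated in the sources used here. A further 327 bases, or 4.25%, lie over exons of the protein-coding Gm49776 on the same strand, which no strand setting can separate. Whether the annotation used for the counts held Gm49776 is not known. Trmt2a, a tRNA methyltransferase gene, fell, with means of 26.8 ± 0.520 CPM in the Dia2 libraries and 38.5 ± 4.04 CPM in the control libraries (SD, n = 3 each; edgeR adjusted p = 7.19e-05). Per length, the 2 Microprocessor subunits were set against each other as the ratio of their deposited RPKM values, a comparison chosen after the values had been seen. Drosha exceeded Dgcr8 by a ratio of 1.80, 1.86 and 1.90 in the Dia2 libraries, against 2.55, 2.77 and 2.75 in the control libraries. The ratio was lower in every Dia2 library, with an exact permutation p of 0.1 (two-sided), the smallest that 3 against 3 libraries allow.

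Export and dicing showed no call. Xpo5 (chromosome 17, 46202855 to 46242299, plus strand) had 136, 139 and 133 CPM in the Dia2 libraries, against 145, 140.0 and 133 CPM in the control libraries, and the groups overlapped (log2 fold change -0.03 ± 0.046, SE; edgeR adjusted p = 0.602). Dicer1 (chromosome 12, 104687742 to 104751952, minus strand), the RNase III enzyme that makes the final duplex, had 117, 114 and 108 CPM in the Dia2 libraries, against 114, 107 and 111 CPM in the control libraries. Its groups also overlapped (log2 fold change 0.03 ± 0.047, SE; edgeR adjusted p = 0.579). Tarbp2 (chromosome 15, 102518192 to 102523676, plus strand), whose protein steadies Dicer1 and helps hand the duplex to an Argonaute, had 53.8, 54.7 and 53.0 CPM in the Dia2 libraries, against 61.4, 60.5 and 54.0 CPM in the control libraries. Control replicate 3 lay among the Dia2 libraries and the other control libraries above them. The log2 fold change was -0.12 ± 0.056 (SE; edgeR adjusted p = 0.0741), and without control replicate 3 it was -0.18 and passed (adjusted p = 0.00112).

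The Argonaute genes moved unequally. Ago2 (chromosome 15, 73101625 to 73184947, minus strand), the Argonaute with slicer activity, stood at 156, 154 and 158 CPM in the Dia2 libraries, against 109, 110.2 and 107 CPM in the control libraries. Each group spanned only a few CPM and the gap between them was far wider. The means were 156 ± 1.64 CPM in the Dia2 libraries and 109 ± 1.61 CPM in the control libraries (SD, n = 3 each), and the log2 fold change was 0.52 ± 0.040 (SE; edgeR adjusted p = 4.36e-07), or 1.44-fold higher. Chrac1 on the opposite strand covers 1.56% of the exon bases of Ago2 and did not pass the test (edgeR adjusted p = 0.0901).

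The other Argonaute genes, Ago3, Ago1 and Ago4, are neighbours on the minus strand of chromosome 4, at 126340678 to 126429542, 126435013 to 126468421 and 126489543 to 126533458. Ago4 was the scarcest of the 10 genes and changed the most. It had 504, 658 and 552 counts, or 6.70, 6.85 and 5.90 CPM, in the Dia2 libraries, against 268, 184 and 138 counts, or 2.39, 2.24 and 2.00 CPM, in the control libraries. Every Dia2 library was more than 2 times above every control library. The log2 fold change was 1.54 ± 0.11 (SE; edgeR adjusted p = 2.22e-07), or 2.92-fold higher. Ago1, the gene between the others, had 65.7, 65.0 and 65.0 CPM in the Dia2 libraries, against 67.4, 70.2 and 66.7 CPM in the control libraries. The groups were apart by a narrow margin, and the difference did not pass (log2 fold change -0.06 ± 0.045, SE; edgeR adjusted p = 0.251). Ago3 had 25.4, 27.5 and 24.2 CPM in the Dia2 libraries, against 22.0, 21.1 and 25.3 CPM in the control libraries. Control replicate 3 again lay among the Dia2 libraries (log2 fold change 0.18 ± 0.078, SE; edgeR adjusted p = 0.0710), and without it Ago3 passed as higher (0.25, adjusted p = 0.00130); with upper-quartile factors it passed as well (adjusted p = 0.0364).

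**Figure D2:**
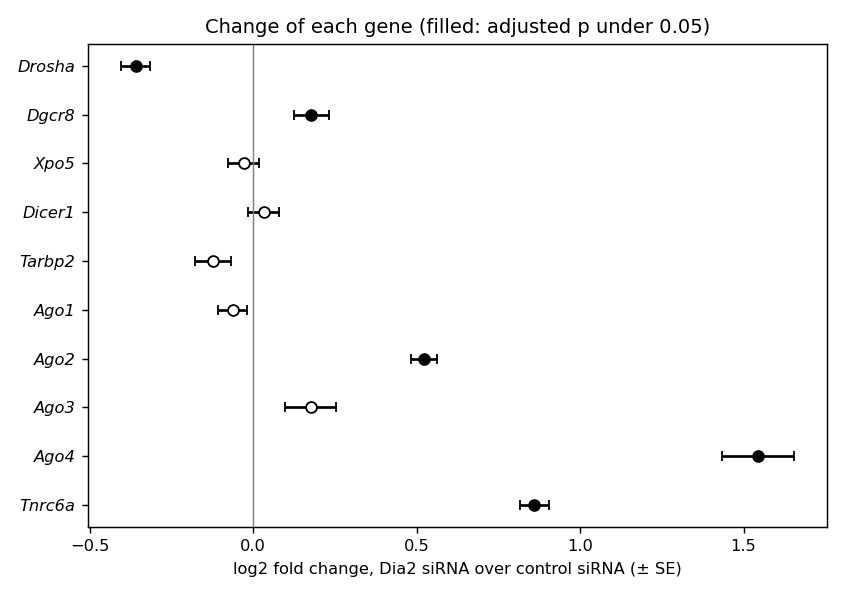
Log2 fold change of each gene, Dia2 siRNA over control siRNA (horizontal axis), with its SE as the bar; filled points passed an adjusted p of 0.05 and open points did not. Ago4 lies farthest right at 1.54, followed by Tnrc6a at 0.86 and Ago2 at 0.52, and Drosha is the filled point on the left at -0.36.

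Levels of different genes were compared per length, with the RPKM values the authors deposited. The summed RPKM of the Argonaute genes was 26.2, 27.8 and 28.3 in the Dia2 libraries, against 23.0, 23.5 and 21.4 in the control libraries. Ago2 made up 58.8%, 58.1% and 59.7% of that sum in the Dia2 libraries, against 51.5%, 51.2% and 50.5% in the control libraries, and its share was higher in every Dia2 library (exact permutation p = 0.1, two-sided, the smallest possible here). The share of Ago1 was correspondingly lower, at 27.8% to 28.1% in the Dia2 libraries and 35.8% to 37.1% in the control libraries. Ago4 held 2.75% to 3.17% in the Dia2 libraries and 1.16% to 1.39% in the control libraries, so that despite its fold change it remained the smallest part of the sum. The share of Ago3 overlapped between groups, at 9.63% to 10.9% in the Dia2 libraries and 10.3% to 12.6% in the control libraries.

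Tnrc6a had the largest rise after Ago4. Its protein, also called GW182, ties the loaded Argonaute to the deadenylase complexes, and the gene lies on chromosome 7, 123123885 to 123195296, plus strand. It stood at 155, 151 and 152 CPM in the Dia2 libraries, against 81.3, 83.7 and 87.3 CPM in the control libraries. The groups were far apart compared with their spread, with means of 153 ± 1.91 CPM in the Dia2 libraries and 84.1 ± 3.04 CPM in the control libraries (SD, n = 3 each). The log2 fold change was 0.86 ± 0.044 (SE; edgeR adjusted p = 1.78e-08), or 1.81-fold higher. Its paralogs Tnrc6b and Tnrc6c, from the list of partner genes, differed from it and from each other. Tnrc6c rose, with 61.4, 64.2 and 64.0 CPM in the Dia2 libraries and 42.1, 46.4 and 42.6 CPM in the control libraries (log2 fold change 0.53 ± 0.053, SE; edgeR adjusted p = 3.53e-06). Tnrc6b fell, with 147, 149 and 150.0 CPM in the Dia2 libraries and 172, 179 and 191 CPM in the control libraries (log2 fold change -0.28 ± 0.048, SE; edgeR adjusted p = 0.000316). Per length, Tnrc6a held 54.1%, 52.8% and 53.0% of the summed TNRC6 RPKM in the Dia2 libraries, against 39.6%, 38.9% and 39.5% in the control libraries. Tnrc6b held 25.0% to 25.3% in the Dia2 libraries and 40.2% to 41.8% in the control libraries. Per length, Tnrc6a was thus the largest part in the Dia2 libraries, while in the control libraries Tnrc6b exceeded it slightly in all 3 (exact permutation p = 0.1, two-sided, for the Tnrc6a share, which was chosen after the values had been seen). The sizes of these shares depend on the deposited gene lengths. In CPM, Tnrc6b was far above Tnrc6a in the control libraries, at 172 to 191 against 81.3 to 87.3, and slightly below it in every Dia2 library.

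**Figure D3:**
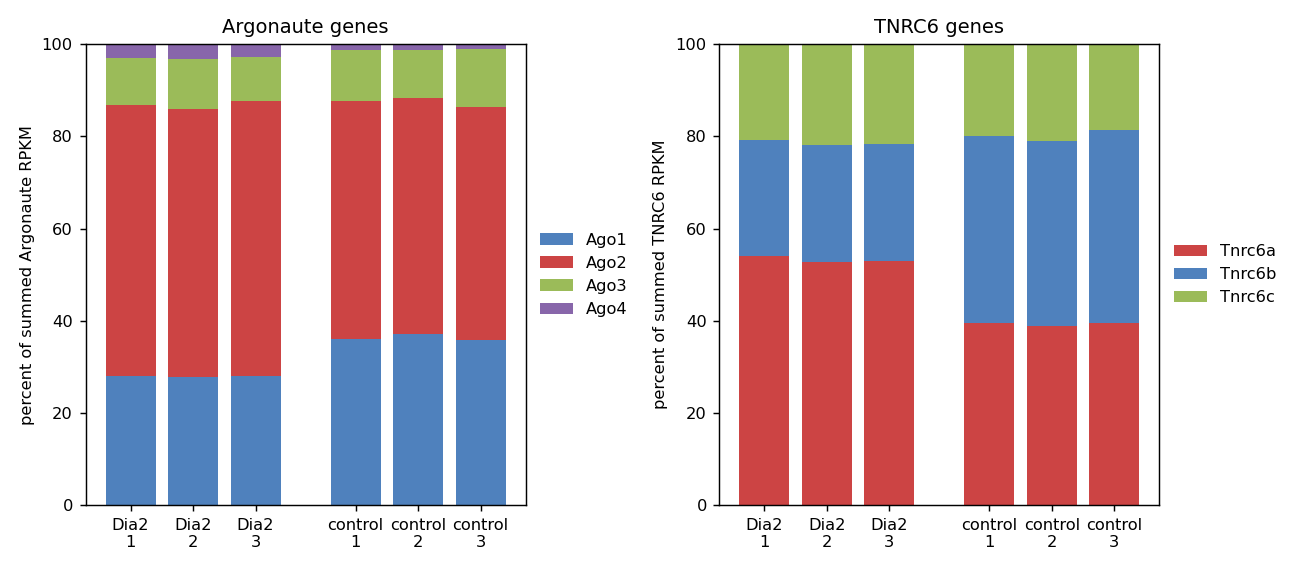
Share of each paralog in the summed RPKM of the Argonaute genes (left) and of the TNRC6 genes (right), in percent of the sum, for Dia2 siRNA libraries 1 to 3 and then control siRNA libraries 1 to 3. Ago2 takes 58.1% to 59.7% in the Dia2 libraries and 50.5% to 51.5% in the control libraries, and Tnrc6a takes 52.8% to 54.1% in the Dia2 libraries and 38.9% to 39.6% in the control libraries.

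Ordered by mean RPKM, the 10 genes spanned from Xpo5 to Ago4 in both groups. In the Dia2 libraries the order was Xpo5 (30.5 ± 1.26), Tarbp2 (25.0 ± 1.06), Drosha (16.3 ± 1.10), Ago2 (16.2 ± 0.748), Tnrc6a (14.9 ± 0.507), Dicer1 (9.54 ± 0.188), Dgcr8 (8.82 ± 0.344), Ago1 (7.67 ± 0.288), Ago3 (2.80 ± 0.209) and Ago4 (0.825 ± 0.0534; SD, n = 3). Drosha, Ago2 and Tnrc6a each overlapped the others in range. In the control libraries the order was Xpo5 (32.0 ± 2.65), Tarbp2 (27.98 ± 3.05), Drosha (21.5 ± 1.42), Ago2 (11.6 ± 0.654), Dicer1 (9.58 ± 0.469), Tnrc6a (8.45 ± 0.169), Ago1 (8.23 ± 0.533), Dgcr8 (8.004 ± 0.682), Ago3 (2.54 ± 0.135) and Ago4 (0.290 ± 0.0362; SD, n = 3). There Xpo5 overlapped Tarbp2, and Tnrc6a, Ago1 and Dgcr8 each overlapped the others. Drosha stood level with Ago2 in the Dia2 libraries and well above it in the control libraries, and Tnrc6a stood above Dicer1 in the Dia2 libraries and below it in the control libraries.

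Promoters are shown for Ago4, which changed the most, for its neighbour Ago1, which did not pass, and for Tnrc6a and Drosha, the other genes with a large rise and the only fall. Each runs from 250 bases before to 50 bases after a RefSeq transcription start (GRCm38.p6). Capitals mark GGGCGG (the GC box) and CCAAT (the CCAAT box) on either strand; neighbouring GC boxes can share bases, as in the Ago4 window, and are counted separately.
Ago4, chr4:126533409-126533708, minus strand: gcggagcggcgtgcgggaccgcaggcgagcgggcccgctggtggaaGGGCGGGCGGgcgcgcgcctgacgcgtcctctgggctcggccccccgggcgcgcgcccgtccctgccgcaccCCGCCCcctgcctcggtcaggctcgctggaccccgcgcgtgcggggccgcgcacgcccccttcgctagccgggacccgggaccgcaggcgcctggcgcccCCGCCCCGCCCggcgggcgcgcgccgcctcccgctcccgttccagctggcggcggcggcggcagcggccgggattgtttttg
Ago1, chr4:126468582-126468881, minus strand: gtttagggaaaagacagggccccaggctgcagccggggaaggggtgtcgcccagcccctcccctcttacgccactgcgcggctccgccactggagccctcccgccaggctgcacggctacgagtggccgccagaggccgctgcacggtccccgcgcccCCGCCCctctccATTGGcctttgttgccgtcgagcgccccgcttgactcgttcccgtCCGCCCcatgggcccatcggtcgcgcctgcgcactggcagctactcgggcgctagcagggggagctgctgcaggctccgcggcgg
Tnrc6a, chr7:123123635-123123934, plus strand: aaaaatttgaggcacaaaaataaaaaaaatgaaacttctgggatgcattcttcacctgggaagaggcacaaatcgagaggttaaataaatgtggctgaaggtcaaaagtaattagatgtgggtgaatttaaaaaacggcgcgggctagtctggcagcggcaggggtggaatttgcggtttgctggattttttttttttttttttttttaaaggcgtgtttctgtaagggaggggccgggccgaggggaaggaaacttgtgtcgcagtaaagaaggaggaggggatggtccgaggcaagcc
Drosha, chr15:12824565-12824864, plus strand: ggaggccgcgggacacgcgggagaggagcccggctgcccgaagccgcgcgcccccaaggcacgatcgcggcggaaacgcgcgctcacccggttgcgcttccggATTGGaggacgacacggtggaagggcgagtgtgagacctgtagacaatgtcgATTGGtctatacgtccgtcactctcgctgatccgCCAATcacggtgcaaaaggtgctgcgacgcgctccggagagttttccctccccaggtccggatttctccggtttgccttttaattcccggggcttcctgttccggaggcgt
These promoters differed in make-up. That of Ago4 held 5 GC boxes and 54 CG dinucleotides in 83.3% G and C, that of Tnrc6a held neither motif and 11 CG dinucleotides in 44.7% G and C, and that of Ago1 held 2 GC boxes and 1 CCAAT box in 73.0%. The Drosha promoter held 3 CCAAT boxes and no GC box. Over 32851 promoters of the same length, 35.7% held a GC box and 37.4% a CCAAT box, and the median was 52.7% G and C with 7 CG dinucleotides. Neither TATAAA nor CACGTG (the E-box), searched on both strands and present in 13.6% and 7.15% of all promoters, occurred in the windows of the 9 genes matched in the RefSeq table, all but Ago2. These matches describe the sequence only.

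The 3′ UTRs of the 10 genes were read for 5 words of 7 bases. AACTTAA pairs with bases 2 to 8 of the antisense strand of the Dia2 siRNA. GGACTCT pairs with the same bases of the sense strand. The other words came from earlier results on these same libraries and give no independent evidence: GCAGTAC is one, the next is TATGTGA, and the last is ATGTGAA, which can share bases with the one before it. Representative sites are shown, in capitals, with 8 bases on either side (GENCODE M21, GRCm38).
Ago4, chr4:126490555-126490561, minus strand: atagttttAACTTAActggggtt
Ago4, chr4:126492084-126492090, minus strand: cacattgaGCAGTACtgcacttg
Ago4, chr4:126489689-126489695, minus strand: tgaatcccTATGTGAgataagat
Ago2, chr15:73103977-73103983, minus strand: tcatggtgGGACTCTcctagtag
Dicer1, chr12:104688755-104688761, minus strand: gttcatatTATGTGAaatgatta
Tnrc6a, chr7:123193129-123193135, plus strand: atattataATGTGAAagggtatc
AACTTAA occurred in 5 of the 10 genes (Ago1, Ago2, Ago3, Ago4 and Dicer1), and in 14.0% of 13172 tested genes with an annotated 3′ UTR. Of these 5, Ago2 and Ago4 rose, while Ago1, Ago3 and Dicer1 did not pass. Ago1 was slightly lower in every Dia2 library. An effect of the siRNA seed on these genes was not tested. GGACTCT occurred in Ago2 and Ago3 (13.3% of all), GCAGTAC in Ago4 (6.17% of all), TATGTGA in Ago3, Ago4 and Dicer1 (13.5% of all), and ATGTGAA in Ago4, Dicer1 and Tnrc6a (18.3% of all). In Dicer1 the last 2 words overlap in a single site. Drosha, the gene that fell, held none of the 5 words, and neither did Dgcr8, Tarbp2 and Xpo5. The longest annotated 3′ UTR was 169 bases for Drosha, 334 for Tarbp2, 1327 for Xpo5 and 1574 for Dgcr8, against 2345 to 12742 for the genes that held a word, and length was not separated from word content. The Ago3 sites other than its AACTTAA matches lie outside its row in the deposited table, whose gene model ends before them.

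Partners of the machinery were read from 3 lists. Of 22 tested biogenesis partners (24 listed), 3 were higher and 10 lower, so that 59.1% passed, against 59.2% of all genes tested. Among them Srrt, which links the cap-binding complex to primary microRNA processing, fell 1.53-fold (log2 fold change -0.61 ± 0.049, SE; edgeR adjusted p = 6.15e-07). Ncbp1, the large cap-binding subunit, fell 1.33-fold, and Ran, the GTPase that exportin 5 needs, fell 1.36-fold. Hnrnpa1 was 1.32-fold higher, but it has many near-identical copies in the genome, among which reads may have been split. Prkra, a paralog of Tarbp2 that also binds Dicer1, was higher with 21.8, 23.1 and 22.3 CPM in the Dia2 libraries and 16.5, 17.2 and 18.5 CPM in the control libraries (edgeR adjusted p = 0.000288), and was named after its values were seen. Lin28a and Lin28b, which block let-7 processing in early embryonic cells, were at 0 counts in every library.

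Of 16 tested partners of the loaded complex (17 listed), 1 was higher, Tnrc6c, and 11 were lower, against 29.3% higher and 29.9% lower of all genes tested. Fmr1, an RNA-binding protein found with Argonaute complexes, fell the most, with 62.1, 58.0 and 53.1 CPM in the Dia2 libraries and 129, 121 and 165 CPM in the control libraries, or 2.40-fold (edgeR adjusted p = 2.02e-06). Gemin4 and Snd1, both found in complexes with Argonaute, fell 1.64-fold and 1.61-fold. Among the chaperones and co-chaperones of the list, which help to load a duplex, the log2 fold change was -0.45 for Hsp90aa1, -0.34 for Fkbp4, -0.27 for Hsp90ab1 and -0.21 for Hspa8, which passed as lower. It was -0.03 for Ptges3, whose groups overlapped and which did not pass (edgeR adjusted p = 0.706). The median log2 fold change of this list was -0.28, of the biogenesis list -0.08, and of all genes tested 0.01.

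Of 25 deadenylation and decapping genes, all tested, 7 were higher and 8 lower, so that 60.0% passed, against 59.2% of all genes tested. Dcp2, the decapping enzyme, fell 2.43-fold, with 29.8, 26.5 and 24.6 CPM in the Dia2 libraries and 64.8, 59.8 and 71.6 CPM in the control libraries (log2 fold change -1.28 ± 0.081, SE; edgeR adjusted p = 8.73e-08). Its activator Dcp1a rose 1.43-fold, Lsm14a, a P-body protein, rose 1.40-fold, and Eif4enif1, which binds the cap-binding factor eIF4E, fell 1.54-fold. Cnot1, the scaffold of the deadenylase complex that TNRC6 proteins recruit, had 272, 276 and 268 CPM in the Dia2 libraries and 264, 260.0 and 266 CPM in the control libraries and did not pass (edgeR adjusted p = 0.367). The median log2 fold change of the list was 0.05. The annotated 3′ UTR of Dcp2, which fell, held all 5 words, and that of Dcp1a, which rose, held 4. Those of Gemin4, which fell, and Lsm14a, which rose, held none. Whether word content went with direction was not tested.

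**Figure D4:**
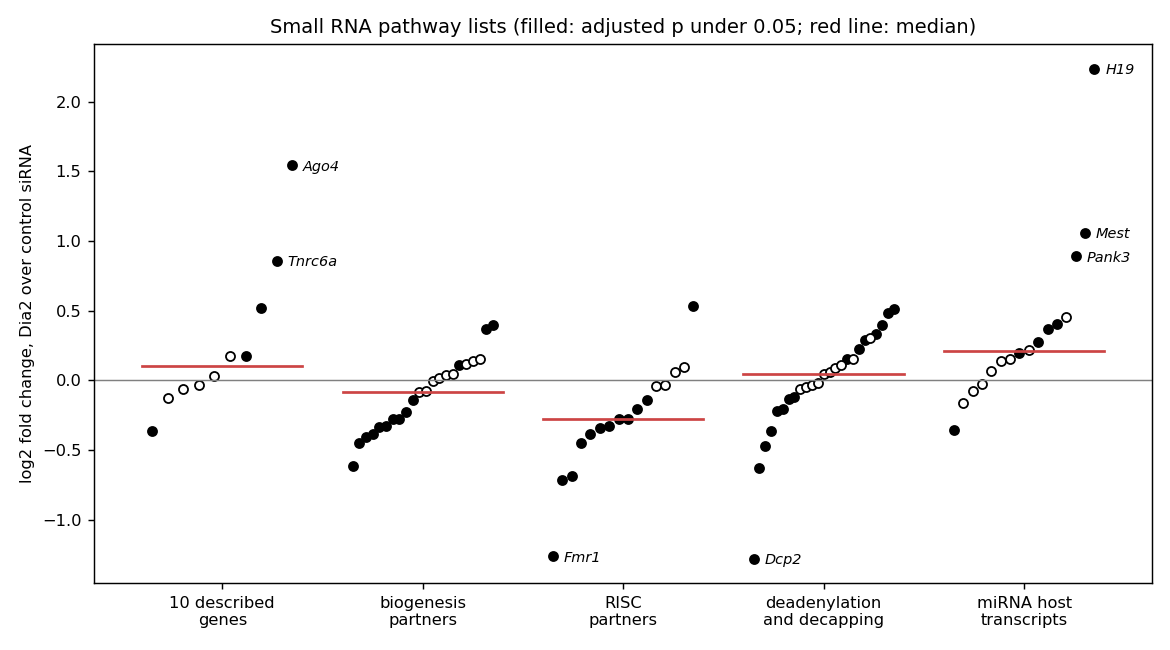
Log2 fold change, Dia2 siRNA over control siRNA (vertical axis), of each tested gene in the set of 10 and in 4 lists (horizontal axis), sorted within each; filled points passed an adjusted p of 0.05, red lines are medians, and genes beyond 0.8 in size are labelled. The partners of the loaded complex lie mostly below 0 with a median of -0.28, while the 10 genes have a median of 0.10 and the deadenylation and decapping genes one of 0.05; the H19 value rests on very few counts.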

How the data were processed

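Gene counts were deposited for 6 libraries of transfected mouse bone marrow mesenchymal stem cells, with RPKM values and a coding length per gene, per the file headers. The authors used bcl2fastq, TopHat2 2.0.6 and HTSeq and named the builds hg19 and GRCh37, per the submitters' processing notes. The table holds mouse symbols, and 99.3% of 22681 rows matched by symbol overlapped that gene in GRCm38.p6, so coordinates were read as GRCm38. No source used here gives the annotation or the strand setting. The deposited RPKM values equal the count over the coding length and 1 total per library. Older symbols were updated for 1919 rows.

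Counts were filtered with filterByExpr (minimum count 10, minimum total 15), normalised with TMM and tested by edgeR 4.0.16 (limma 3.58.1, R 4.3.3) with robust quasi-likelihood fits. The SE is the absolute log2 fold change over the root of F. Halved counts of replicates differed by a chi-square of 7.04 to 90.7 per degree of freedom, so none was a copy. A floor of 6 counts corresponds to 0.0545 to 0.0851 CPM of the library total, before TMM scaling, and covers counting error only.

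The genes, lists and words were chosen with earlier results of these data known. Named genes are the 10, Diaph3, and up to 4 called members of each list with the largest change and a mean CPM of at least 1. Tnrc6b, Prkra, Cnot1, the chaperones, Trmt2a, Chrac1, Gm49776, Dnm3os, Piwil2, Piwil4, Pld6, Csf1r, Itgam, Vwf, Kdr, Thy1, the collagens, H19 and Mcm7 were named after their values were seen. Alternatives were DESeq2 1.42.0 and its size factors, limma-voom, other factors and filters, halved counts, a replicate block, a fit without Rn45s and each library left out.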

Additional observations from a re-analysis of the deposited data

How the results depend on the processing

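Over 17 alternatives, 162 of 170 values of the 10 genes kept their direction and their side of the threshold. The calls of Ago2, Ago4, Tnrc6a and Drosha held under every alternative. Dgcr8 lost its call without a composition factor and without Dia2 replicate 3, Ago3 gained one with upper-quartile factors, and Ago3 and Tarbp2 gained one without control replicate 3, alone or with Dia2 replicate 1; the cause was not tested. Xpo5, never called, changed sign with upper-quartile factors (0.0054). The number of genes lower among the 10 was 1, and 2 without control replicate 3 and Dia2 replicate 1 together, with a range of 1 to 2 when single libraries were left out; the number higher was 4, with a range of 3 to 5. With the replicate number as a block, 4 were higher and 1 lower, and 7772 genes were called in place of 8380. Same-numbered libraries did not deviate together (r of -0.14, -0.03 and -0.24 over 11664 genes for numbers 1, 2 and 3), so the numbers were not read as pairs. Low counts limit what can be said of the hairpins and of H19.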

Other observations

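Among host transcripts of microRNAs, of 16 tested (21 listed), 7 were higher and 1, Mcm7, was lower, so that 50.0% passed, against 59.2% of all genes tested (29.3% higher, 29.9% lower). Mest, an imprinted gene, rose 2.09-fold, with 2.47, 2.79 and 2.88 CPM in the Dia2 libraries and 1.14, 1.46 and 1.33 CPM in the control libraries (edgeR adjusted p = 5.53e-05). Pank3, a pantothenate kinase gene, rose 1.85-fold, and Ctdspl and Copz2 rose 1.32-fold and 1.29-fold. Dnm3os, the long non-coding RNA that carries a microRNA cluster of skeletal development, had 22.1, 21.2 and 22.8 CPM in the Dia2 libraries and 15.4, 16.8 and 24.7 CPM in the control libraries; control replicate 3 lay above all others, and the difference did not pass (edgeR adjusted p = 0.217). H19, which carries a microRNA and is abundant in the embryo, passed the test with 12, 34 and 14 counts in the Dia2 libraries and 2, 6 and 4 counts in the control libraries, which lie at or under the floor of 6 counts.

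The Piwi proteins are the germline relatives of the Argonautes. Of 9 genes of the Piwi pathway 3 were tested and 0 passed in edgeR, against 59.2% of all genes tested. In DESeq2 0 of them passed, where 8215 genes were called in all, and in limma-voom 1 passed, where 8467 were called. An unadjusted edgeR p under 0.05 was found for 1 (Piwil4). The other tested genes, Piwil2 and Pld6, were scarce, with means of 0.201 and 0.145 CPM in the Dia2 libraries and 0.252 and 0.110 CPM in the control libraries. So few and scarce genes say little about the pathway. Piwil4 had 2.13, 2.69 and 2.86 CPM in the Dia2 libraries and 1.57, 2.07 and 2.23 CPM in the control libraries (edgeR adjusted p = 0.0529). Mael, Ddx4 and Asz1 were at 0 counts in every library, which allows up to 0.0545 to 0.0851 CPM per library before TMM scaling.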
